A study of Mus musculus with 12 samples.

Results

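Serine synthesis and folate one-carbon enzymes were followed in N2a cells, a mouse neuroblastoma line, through the 10 genes Phgdh, Psat1, Psph, Shmt1, Shmt2, Mthfd1, Mthfd1l, Mthfd2, Aldh1l2 and Gldc. They were picked by name, with earlier results of these data known, and all 10 were found among the 24318 gene rows of both expression tables. The cells had received brain-derived extracellular vesicles (BDEVs), membrane-bound particles that cells shed, of the SE group or of the CON group, or vehicle. The title of the study gives SE as status epilepticus, that is a prolonged seizure, while CON is not spelled out in the labels. There were 4 libraries each of SE-BDEV, CON-BDEV and Vehicle, all from polyadenylated RNA of the same cell line with no genetic change named. The labels used here give no vesicle dose or treatment time and do not say if replicates were separate cultures or vesicle batches. The p-values therefore reflect the spread among these libraries alone, and that spread may be technical.

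In this pathway Phgdh, Psat1 and Psph make serine from an intermediate of glycolysis. Serine hydroxymethyltransferases, Shmt1 in the cytosol and Shmt2 in mitochondria, then split serine into glycine and a carbon unit that is carried on folate. In mitochondria Mthfd2 and Mthfd1l turn that unit into formate, Aldh1l2 oxidises it to carbon dioxide, and Gldc is the decarboxylase of the glycine cleavage system. In the cytosol Mthfd1 takes up formate for purine and thymidylate synthesis. Many of these genes are known targets of the amino acid stress factor ATF4, and in brain Phgdh is known as an astrocyte-rich enzyme.

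Levels are given in FPKM (fragments counted on a gene, scaled to the length of the transcript and to the mapped fragments of the library) as the authors made them. Depth, which could only be estimated, was 12500000 to 14500000 fragments per SE-BDEV library, 12300000 to 13600000 per CON-BDEV library and 14200000 to 15500000 per Vehicle library. The BDEV libraries were thus on average shallower than the Vehicle libraries, and the part of depth in the differences below was not tested. At the lowest of these depths the least expressed member, Gldc, would have about 352 fragments, a counting error near 5.33%, and Psat1, with about 6971, an error near 1.20%. Of 12 markers of sympathetic neuroblasts, 11 averaged at least 1 FPKM, with a summed level of 907 to 959 FPKM in SE-BDEV, 930 to 976 FPKM in CON-BDEV and 839 to 877 FPKM in Vehicle. Single markers did not all go the way of the sum. In SE-BDEV, CON-BDEV and Vehicle, Chgb averaged 262, 260 and 232 FPKM, but Stmn2 138, 138 and 158 FPKM. Of markers of other brain cells, 2 of 7 for oligodendrocytes, 1 of 7 for microglia, 1 of 5 for endothelium and 2 of 8 for forebrain neurons averaged at least 1 FPKM, and Opalin, C1qb, Cldn5 and Neurod6 were at 0 throughout. In bulk RNA, fewer cells of a type and less RNA per cell cannot be told apart.

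The 10 genes ranged over a wide span of levels in N2a cells. In Vehicle, Phgdh (314 FPKM), Psat1 (261 FPKM), Mthfd2 (255 FPKM) and Shmt2 (205.5 FPKM) led, and from 2.09% to 3.34% of the 11311 tested genes stood higher. Psph (63.1 FPKM), Mthfd1l (59.0 FPKM), Mthfd1 (46.2 FPKM), Shmt1 (34.7 FPKM) and Aldh1l2 (34.0 FPKM) followed, and Gldc came last at 8.70 FPKM, 36.1-fold below Phgdh. In the files, which use mm9, Phgdh lies on chromosome 3 (98117094 to 98143892), Shmt2 on chromosome 10 (126951995 to 126959500), and Psat1 and Gldc on chromosome 19 (15979613 to 15999549 and 30172931 to 30249931). Mthfd1l and Aldh1l2 are also on chromosome 10 (6179460 to 6373466 and 82950192 to 82996885), Psph on 5 (130271434 to 130293129), Mthfd2 on 6 (83255698 to 83267598), Shmt1 on 11 (60602399 to 60624767) and Mthfd1 on 12 (77356219 to 77420807). Neighbours in the order of levels overlapped over the 4 Vehicle libraries for Psat1 and Mthfd2, for Psph and Mthfd1l, and for Shmt1 and Aldh1l2. In both BDEV groups Mthfd2 stood above Psat1 and Mthfd1l above Psph in the mean, and the other ranks were those of Vehicle.

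**Figure D1:**
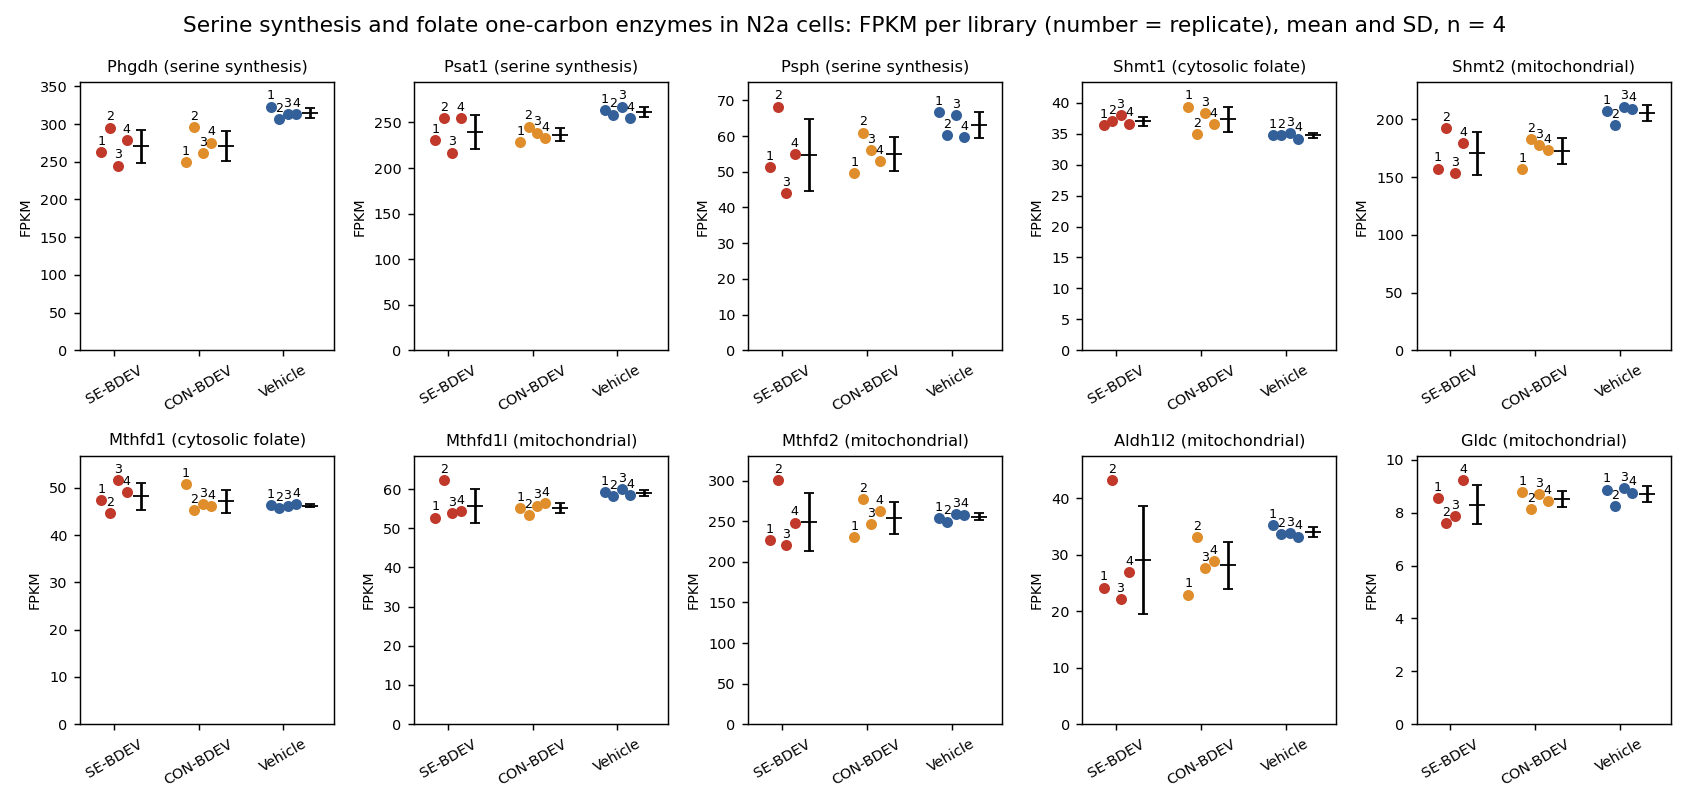
FPKM of each enzyme in every library (points, numbered by replicate) with the group mean and SD (bars, n = 4) for SE-BDEV, CON-BDEV and Vehicle, each panel on its own axis from 0. Phgdh and Shmt2 lie below every Vehicle library in all 8 BDEV libraries, and SE-BDEV replicate 2 stands at the top of its group for Aldh1l2 with 43.2 FPKM.

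The first enzymes of serine synthesis fell in CON-BDEV, and in SE-BDEV their differences from Vehicle were of like size but did not pass the test. Fold changes below are log2 values on the log2(FPKM + 1) scale, each with ± its standard error, and adjusted p-values are from limma over all genes tested. Phgdh, the first enzyme of the route, had 262, 295, 245 and 279 FPKM in SE-BDEV, 249, 296, 261 and 276 FPKM in CON-BDEV, and 323, 307, 313 and 314 FPKM in Vehicle. Every BDEV library lay under the lowest Vehicle library. Phgdh fell in CON-BDEV against Vehicle (log2 fold change -0.22 ± 0.05, limma adjusted p = 0.0317). In SE-BDEV the log2 fold change was also -0.22 ± 0.05, and the limma adjusted p of 0.0814 missed the threshold of 0.05.

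Psat1, the aminotransferase of the next step, had 231, 255, 217 and 254 FPKM in SE-BDEV, 229, 245, 239 and 233 FPKM in CON-BDEV, and 263, 259, 267 and 255 FPKM in Vehicle. All CON-BDEV libraries lay under all Vehicle libraries, while SE-BDEV replicate 2 equalled and replicate 4 came just under the lowest Vehicle library. The log2 fold change of Psat1 was -0.13 ± 0.05 in SE-BDEV (limma adjusted p = 0.271), and it fell in CON-BDEV at -0.14 ± 0.03 (limma adjusted p = 0.0264).

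Psph, the phosphatase that releases serine, had 51.4, 68.2, 44.0 and 55.0 FPKM in SE-BDEV, 49.7, 60.9, 56.1 and 52.9 FPKM in CON-BDEV, and 66.6, 60.2, 65.9 and 59.6 FPKM in Vehicle. SE-BDEV replicate 2 lay above every Vehicle library and the other 3 SE-BDEV libraries below every one. The log2 fold change was -0.22 ± 0.11 in SE-BDEV (limma adjusted p = 0.367) and -0.20 ± 0.06 in CON-BDEV (limma adjusted p = 0.105), neither past the threshold.

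Of the serine hydroxymethyltransferases, the mitochondrial Shmt2 fell in CON-BDEV and the cytosolic Shmt1 had higher means in both BDEV groups without passing. Shmt2 had 157, 192, 153 and 179.6 FPKM in SE-BDEV, 157, 183, 178 and 173 FPKM in CON-BDEV, and 207, 195, 211 and 209 FPKM in Vehicle. No BDEV library reached the lowest Vehicle library. Its log2 fold change was -0.27 ± 0.07 in SE-BDEV (limma adjusted p = 0.0935). Shmt2 fell in CON-BDEV at -0.25 ± 0.04 (limma adjusted p = 0.0156), the smallest adjusted p of the 10 genes there.

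Shmt1 had 36.4, 37.0, 38.0 and 36.6 FPKM in SE-BDEV, 39.4, 34.9, 38.3 and 36.6 FPKM in CON-BDEV, and 34.8, 34.7, 35.1 and 34.2 FPKM in Vehicle. All 4 SE-BDEV libraries and 3 of the 4 CON-BDEV libraries lay above every Vehicle library. Its log2 fold changes of 0.09 ± 0.03 in SE-BDEV and 0.10 ± 0.04 in CON-BDEV did not pass (limma adjusted p = 0.217 and 0.188). The ratio of Shmt2 to Shmt1 in FPKM, computed after their values were seen and given with no test, ran from 4.04 to 5.20 in SE-BDEV, from 4.00 to 5.23 in CON-BDEV and from 5.61 to 6.12 in Vehicle.

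Promoter windows of 300 bases, 250 before and 50 after the start of the gene, are shown for the 3 genes that fell in CON-BDEV and for Shmt1, whose levels lay on the other side. They come from RefSeq on GRCm38.p6, where 9 of the 10 members were matched, Psat1 with 2 starts of which the upstream one is printed. All 4 lie on the minus strand and are written 5′ to 3′ along the gene, in the order Phgdh (chr3:98339920-98340219), Psat1 (chr19:15925010-15925309), Shmt2 (chr10:127522395-127522694) and Shmt1 (chr11:60811216-60811515). Capitals mark CCAAT and GGGCGG on either strand, where the other strand reads ATTGG and CCGCCC, and a pair of GGGCGG matches in Shmt1 overlaps.
Phgdh: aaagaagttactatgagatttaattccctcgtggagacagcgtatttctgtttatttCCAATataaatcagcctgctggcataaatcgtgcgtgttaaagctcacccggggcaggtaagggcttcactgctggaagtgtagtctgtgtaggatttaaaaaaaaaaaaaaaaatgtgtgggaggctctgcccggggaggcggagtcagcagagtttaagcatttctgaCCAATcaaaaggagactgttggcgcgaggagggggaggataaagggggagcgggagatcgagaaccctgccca
Psat1: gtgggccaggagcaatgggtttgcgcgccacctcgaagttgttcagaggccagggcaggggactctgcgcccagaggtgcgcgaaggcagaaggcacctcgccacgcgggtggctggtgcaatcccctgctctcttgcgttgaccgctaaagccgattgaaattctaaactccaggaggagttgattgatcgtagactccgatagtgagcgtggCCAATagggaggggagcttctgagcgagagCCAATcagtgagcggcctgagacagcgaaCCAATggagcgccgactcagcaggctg
Shmt2: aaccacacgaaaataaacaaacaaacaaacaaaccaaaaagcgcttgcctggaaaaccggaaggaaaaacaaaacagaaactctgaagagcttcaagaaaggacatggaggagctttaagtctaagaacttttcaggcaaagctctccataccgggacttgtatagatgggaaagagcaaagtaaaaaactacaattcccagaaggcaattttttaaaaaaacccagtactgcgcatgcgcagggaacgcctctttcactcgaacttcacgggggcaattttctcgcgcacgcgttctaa
Shmt1: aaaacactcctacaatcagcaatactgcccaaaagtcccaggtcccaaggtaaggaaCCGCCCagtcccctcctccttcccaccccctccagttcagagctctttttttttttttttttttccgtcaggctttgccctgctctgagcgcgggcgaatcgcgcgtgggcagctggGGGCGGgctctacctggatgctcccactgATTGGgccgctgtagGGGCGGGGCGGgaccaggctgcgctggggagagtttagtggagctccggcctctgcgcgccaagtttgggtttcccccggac

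Phgdh held 2 and Psat1 3 matches to CCAAT, Shmt1 had 1 match to CCAAT and 4 to GGGCGG, and Shmt2 held neither. The second Psat1 start held 2 matches to GGGCGG and none to CCAAT. Over the 9 matched members, 7 had CCAAT and 6 had GGGCGG in at least 1 window, where 37.4% and 35.7% of all 32851 mouse windows hold them. Members are counted by gene, Psat1 over its 2 windows, and the background by window, so these shares are of unlike units. The letters TGATGNAA, the core of the amino acid response element, were in the windows of 0 of 9 members and in 3.97% of all windows, on both strands. CACGTG, the E-box, was in 0 of 9 and in 7.15% of all windows. Such matches describe letters in these windows only.

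None of the other mitochondrial folate enzymes passed, and for Aldh1l2 the libraries of SE-BDEV lay far apart. Aldh1l2, the formyltetrahydrofolate dehydrogenase, had 24.2, 43.2, 22.2 and 27.0 FPKM in SE-BDEV, 22.9, 33.1, 27.7 and 28.9 FPKM in CON-BDEV, and 35.3, 33.6, 33.9 and 33.2 FPKM in Vehicle. SE-BDEV replicate 2 was above every Vehicle library, while the other 7 BDEV libraries were below every Vehicle library. The log2 fold change was -0.26 ± 0.16 in SE-BDEV (limma adjusted p = 0.474) and -0.28 ± 0.08 in CON-BDEV (limma adjusted p = 0.107). The coefficient of variation of Aldh1l2 was 32.9% over the SE-BDEV libraries, 14.8% over those of CON-BDEV and 2.69% over those of Vehicle.

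Mthfd2, the methylenetetrahydrofolate dehydrogenase and cyclohydrolase, had 227, 300.5, 221 and 249 FPKM in SE-BDEV, 231, 277, 246 and 262 FPKM in CON-BDEV, and 255, 249.7, 259 and 258 FPKM in Vehicle. Libraries of both BDEV groups lay on both sides of the Vehicle range, with replicate 2 at the top of each. The log2 fold changes were -0.05 ± 0.08 in SE-BDEV and -0.01 ± 0.05 in CON-BDEV (limma adjusted p = 0.837 and 0.931).

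Mthfd1l, the mitochondrial formate-producing synthetase, had 52.7, 62.2, 53.9 and 54.4 FPKM in SE-BDEV, 55.2, 53.4, 55.8 and 56.5 FPKM in CON-BDEV, and 59.3, 58.2, 60.0 and 58.6 FPKM in Vehicle. Every Vehicle library exceeded all CON-BDEV libraries and 3 of the 4 SE-BDEV libraries, while SE-BDEV replicate 2 lay above Vehicle. The log2 fold change was -0.08 ± 0.05 in SE-BDEV and -0.09 ± 0.03 in CON-BDEV (limma adjusted p = 0.471 and 0.0993).

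Mthfd1, the cytosolic enzyme with 3 activities on folate, had 47.4, 44.7, 51.6 and 49.2 FPKM in SE-BDEV, 50.7, 45.3, 46.6 and 46.1 FPKM in CON-BDEV, and 46.4, 45.8, 46.1 and 46.5 FPKM in Vehicle. Both BDEV groups spanned the narrow Vehicle range, and replicate 2 was the lowest of each (limma adjusted p = 0.563 for SE-BDEV and 0.722 for CON-BDEV). The ratio of Mthfd2 to Mthfd1 in FPKM was 4.79, 6.72, 4.28 and 5.06 in SE-BDEV, 4.54, 6.12, 5.29 and 5.69 in CON-BDEV, and 5.45 to 5.62 in Vehicle.

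Gldc had 8.54, 7.60, 7.86 and 9.22 FPKM in SE-BDEV, 8.78, 8.13, 8.70 and 8.43 FPKM in CON-BDEV, and 8.87, 8.25, 8.93 and 8.76 FPKM in Vehicle. The groups overlapped (limma adjusted p = 0.674 and 0.764). Its partners in glycine cleavage, Gcsh, Dld and Amt, averaged 83.0, 83.6 and 2.13 FPKM over the 12 libraries, and 0 of the 3 passed in either comparison with Vehicle (limma). All 3 were lower in SE-BDEV than in CON-BDEV, 2 of them with an unadjusted p under 0.05 and 0 past the adjusted threshold in limma, where 2.62% and 0% of 11312 genes did so.

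Over all 10 genes, 3 fell and 0 rose in CON-BDEV against Vehicle, where 1.82% of the 11320 genes tested fell and 1.02% rose (limma). The unadjusted p was under 0.05 for 7 of them, against 19.1% of all genes, and the median log2 fold change was -0.12, against 0.00 over all genes. All 3 calls missed the threshold with no filter on low values, with all 12 libraries in the fit and without the mean-variance trend. In SE-BDEV against Vehicle 0 of 10 passed in limma, where 0.628% of the 11311 genes tested fell and 0.292% rose, and 4 had an unadjusted p under 0.05, against 14.8% of all genes. The median log2 fold change was -0.10, against 0.01 over all genes. In both comparisons 8 of 10 were lower and the cytosolic Shmt1 and Mthfd1 were higher. These comparisons share the Vehicle libraries. Because the 10 genes were chosen with earlier results of these data known, the shares over all genes here and below are background and no test of the set.

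Without a test, all SE-BDEV libraries lay below all Vehicle libraries for 2 of 10 genes and above for 1, against 4.39% and 5.77% of all genes. For CON-BDEV these counts were 5 and 0 of 10, against 6.24% and 5.68%. In the authors' deposited table, Shmt2 was the 1 of 10 genes with a q-value under 0.05 for SE-BDEV (q = 0.0172), against 1.17% of all genes tested there. The authors' deposited table gave 3 of 10 for CON-BDEV, against 1.8% of genes, namely Shmt2 and Aldh1l2 (q = 0.00505 each) and Phgdh (q = 0.0460), with Psat1 at q = 0.351.

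**Figure D2:**
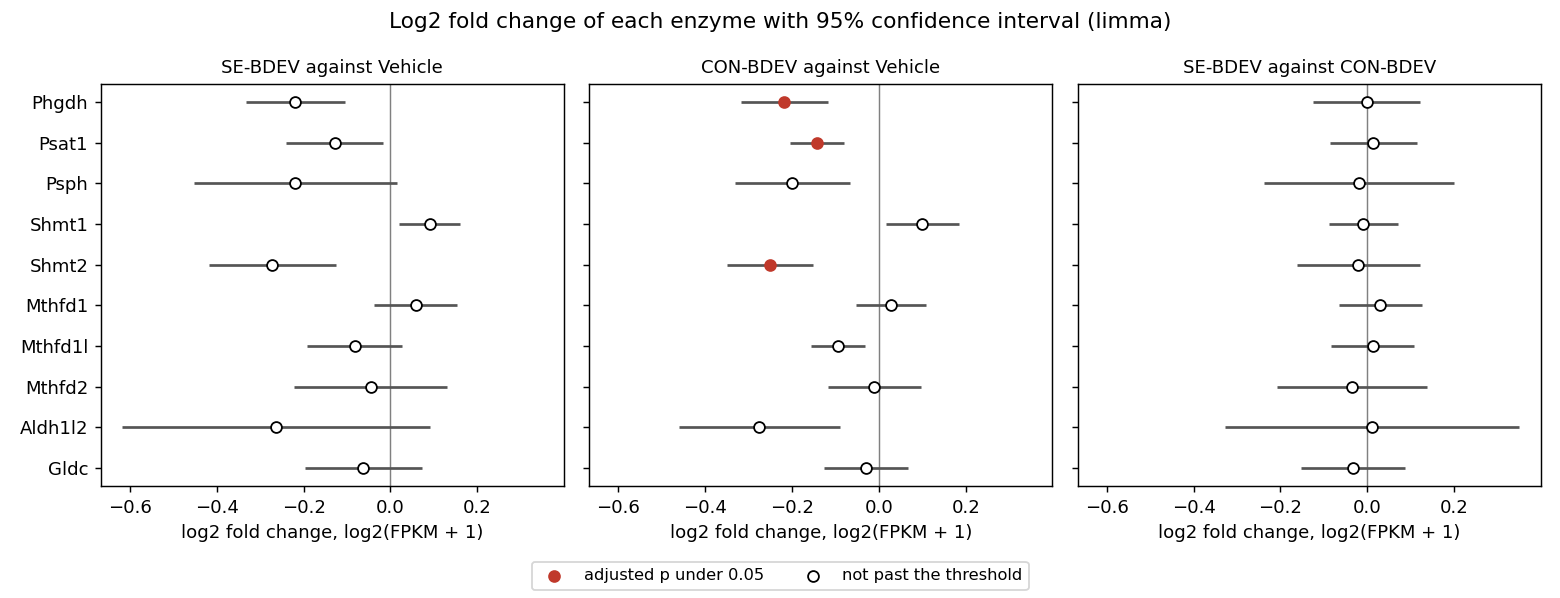
Log2 fold change on the log2(FPKM + 1) scale of each enzyme with its 95% confidence interval from limma, for SE-BDEV against Vehicle, CON-BDEV against Vehicle and SE-BDEV against CON-BDEV. Filled points (adjusted p under 0.05) are Phgdh, Psat1 and Shmt2 in CON-BDEV, and the points for SE-BDEV against CON-BDEV lie within 0.04 of 0.

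The direct comparison of SE-BDEV with CON-BDEV showed no difference past the threshold in any of the 10 genes. In limma, 0 of 10 passed and 0 had an unadjusted p under 0.05, where 0% of 11312 genes passed and 2.62% had an unadjusted p under 0.05. The log2 fold changes of the 10 genes were at most 0.04 in size. The groups overlapped for all 10, while 1.39% of all genes did not overlap. The 95% confidence interval of the difference ran from -0.12 to 0.12 for Phgdh, from -0.09 to 0.11 for Psat1, from -0.16 to 0.12 for Shmt2 and from -0.09 to 0.07 for Shmt1 on the log2 scale. It was widest for Aldh1l2, from -0.33 to 0.35, so differences of that size were not detectable.

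Replicate 2 stood high within both BDEV groups for most of the serine and mitochondrial enzymes. SE-BDEV replicate 2 was the highest of its 4 libraries for 7 of 10 genes, where it was the highest for 28.9% of all genes. Its lead over the mean of the other 3 was 0.82 on the log2 scale for Aldh1l2, 0.44 for Psph and 0.37 for Mthfd2. It was the lowest for 2 of 10, Mthfd1 and Gldc, against 35.8% of all genes. SE-BDEV replicate 3 was the lowest of the group for 6 of 10 genes, against 27.3%. CON-BDEV replicate 2 was the highest of its group for 6 of 10 genes, against 27.4% of all genes, with a lead of 0.32 for Aldh1l2. It was the lowest for the other 4, Shmt1, Mthfd1, Mthfd1l and Gldc, against 30.5%. CON-BDEV replicate 1 was the lowest for 6 of 10 genes, against 26.3% of all genes, and the highest for 3, against 31.0%. In Vehicle, replicate 3 was the highest for 6 of 10 genes, against 23.3% of all genes, and replicate 2 for 0 of 10. Vehicle replicate 2 was the lowest for 6 of 10 genes, against 23.1%. Replicate 2 was singled out after its values were seen. In the library names, same-numbered replicates of SE-BDEV and CON-BDEV carry neighbouring numbers, and all Vehicle libraries carry the last numbers. What this numbering stands for is not stated, and its part in the differences cannot be told apart from BDEV against Vehicle.

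Other genes known as ATF4 targets stood high in the same libraries. The 19 tested had median log2 fold changes of -0.15 in SE-BDEV and -0.04 in CON-BDEV. Replicate 2 was the highest for 19 within SE-BDEV, 18 within CON-BDEV and 1 within Vehicle, against 28.9%, 27.4% and 24.7% of all genes. Its lead over the mean of the others ran from 0.22 to 1.48 on the log2 scale in SE-BDEV and from 0.13 to 0.83 in CON-BDEV. It lay above every Vehicle library for 16 of 19 in SE-BDEV and 12 of 19 in CON-BDEV. Ddit3 and Trib3, given next, had the largest leads in both groups. Ddit3, a stress transcription factor, had 102, 301, 78.7 and 143 FPKM in SE-BDEV, 90.6, 251, 161 and 173 FPKM in CON-BDEV, and 192, 145, 154 and 153 FPKM in Vehicle. Trib3, a pseudokinase, had 48.8, 139.8, 40.5 and 67.0 FPKM in SE-BDEV, 43.9, 115, 79.5 and 82.5 FPKM in CON-BDEV, and 68.8 to 76.8 FPKM in Vehicle. Both BDEV groups had libraries above and below the Vehicle range for both genes. Atf4 itself had 562, 681, 546 and 649.7 FPKM in SE-BDEV, 543, 691, 662 and 646 FPKM in CON-BDEV, and 666 to 679.7 FPKM in Vehicle. The part of this spread between libraries in the levels of the enzymes was not tested.

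**Figure D3:**
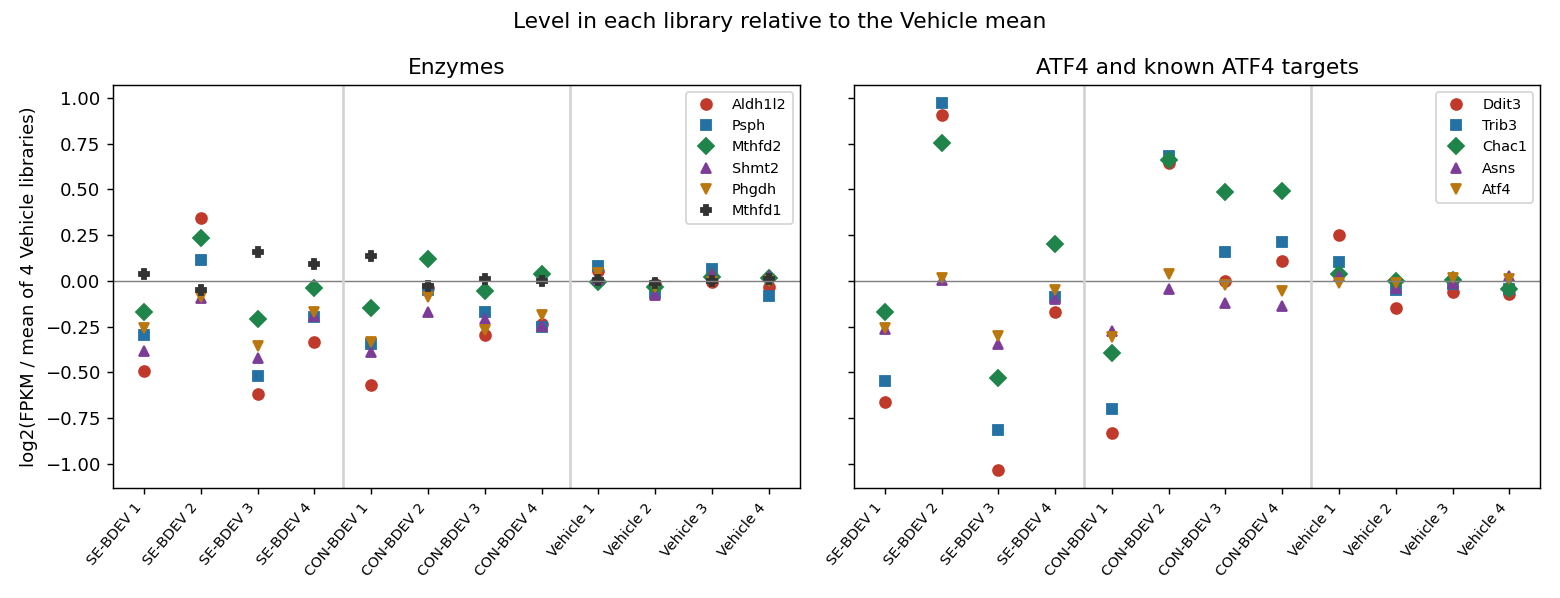
Level in each of the 12 libraries relative to the mean of the 4 Vehicle libraries, on a log2 scale, for 6 of the enzymes (left) and for ATF4 and 4 of its known targets (right). Psat1, Shmt1, Mthfd1l and Gldc are not drawn, and CON-BDEV replicate 2 was the lowest of its group for the last 3 of these. Replicate 2 of SE-BDEV has the highest Aldh1l2 (43.2 FPKM) and Ddit3 (301 FPKM), and SE-BDEV replicate 3 the lowest of both (22.2 and 78.7 FPKM).

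Leaving out 1 library shifted which enzymes passed. Without SE-BDEV replicate 2, 5 of 10 fell in SE-BDEV against Vehicle in limma, where 1.74% of 11299 genes fell and 1.04% rose: Aldh1l2 (log2 fold change -0.46, limma adjusted p = 0.00586), Shmt2 (-0.33, 0.0141), Phgdh (-0.26, 0.0141), Psph (-0.33, 0.0401) and Mthfd1l (-0.13, 0.0389). Without SE-BDEV replicate 3, 0 of 10 passed and the log2 fold changes were nearer to 0, at -0.15 for Aldh1l2, -0.12 for Psph and -0.08 for Psat1 (limma adjusted p = 0.724, 0.595 and 0.458). Without CON-BDEV replicate 2, 5 of 10 fell in CON-BDEV, where 2.5% of 11304 genes fell and 1.18% rose, with Psph (-0.25, limma adjusted p = 0.0312) and Aldh1l2 (-0.35, 0.0210) joining Phgdh, Psat1 and Shmt2. In CON-BDEV Shmt2 passed in 5 of the 8 fits that left out a library and missed the threshold without Vehicle replicate 1, 3 or 4 (limma adjusted p up to 0.0579). Psat1 passed in the 3 that left out CON-BDEV replicate 1, CON-BDEV replicate 2 or Vehicle replicate 4, and reached at most 0.0908 in the others. Phgdh passed in 2, without CON-BDEV replicate 1 or 2, and reached at most 0.104 in the others. The log2 fold changes lay between -0.28 and -0.21 for Shmt2, between -0.16 and -0.13 for Psat1 and between -0.26 and -0.18 for Phgdh.

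**Figure D4:**
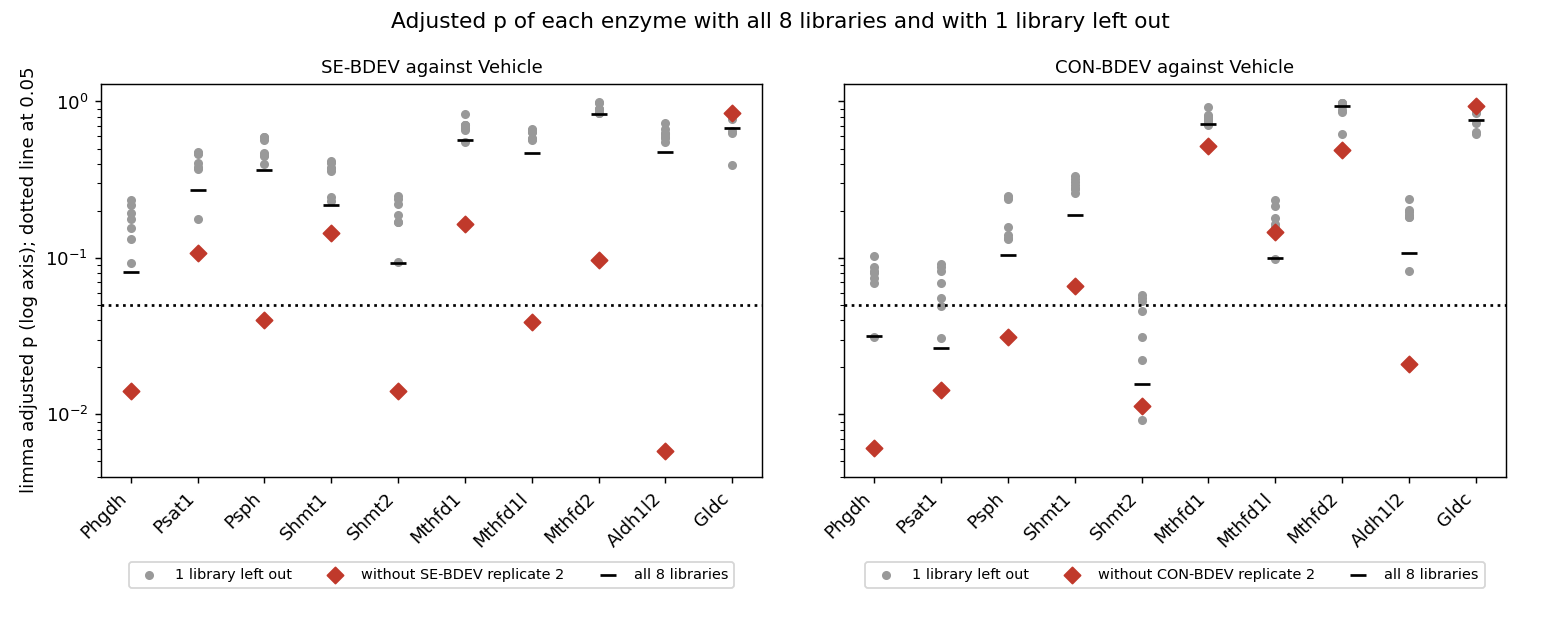
Adjusted p (limma, log axis) of each enzyme against Vehicle with all 8 libraries (dash), with each library left out in turn (grey points) and without replicate 2 of the BDEV group (diamonds), with the threshold of 0.05 as a dotted line. Aldh1l2 in SE-BDEV has an adjusted p of 0.474 with all libraries and of 0.00586 without SE-BDEV replicate 2.

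Of 102 listed genes around the pathway in 9 groups, 88 were tested. In SE-BDEV against Vehicle 0 of 88 passed and 15 had an unadjusted p under 0.05 (limma), beside 0.628% of all genes that fell, 0.292% that rose and 14.8% at an unadjusted p under 0.05. In CON-BDEV against Vehicle 2 of 88 fell, 0 rose and 22 had an unadjusted p under 0.05, beside 1.82%, 1.02% and 19.1% of all genes, so the calls were near the background. Ahcyl1, an S-adenosylhomocysteine hydrolase-like protein and the 1 of 7 genes of methionine and methylation to pass, had 67.0, 66.3, 64.9 and 64.4 FPKM in CON-BDEV and 73.2, 72.3, 69.8 and 72.8 FPKM in Vehicle (log2 fold change -0.13 ± 0.03, limma adjusted p = 0.0317). The other was Wars, the tryptophanyl-tRNA synthetase gene, the 1 of 19 ATF4 targets to pass, with 58.6, 68.7, 64.0 and 63.1 FPKM in CON-BDEV and 78.3, 71.5, 78.5 and 77.3 FPKM in Vehicle (log2 fold change -0.26 ± 0.05, limma adjusted p = 0.0166). For both, no CON-BDEV library reached the lowest Vehicle library. Ahcyl1 passed in 3 of the 8 fits that left out a library, where CON-BDEV replicate 1, CON-BDEV replicate 2 or Vehicle replicate 3 was absent, and Wars in 4, where CON-BDEV replicates 1, 2, 3 or Vehicle replicate 2 was absent. By list, the unadjusted p (limma) was under 0.05 for 7 of 19 ATF4 targets in SE-BDEV and 8 of 19 in CON-BDEV. It was so for 2 and 4 of 9 known regulators, beside 14.8% and 19.1% of all genes. No other list had more than 3 such genes, the 8 of lower glycolysis having 3 in CON-BDEV.

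The folate cycle and transport list had 13 tested genes, of which 0 passed in either comparison with Vehicle (limma), with median log2 fold changes of 0.00 in SE-BDEV and 0.05 in CON-BDEV. Its most expressed members, the folate carrier Slc19a1, the polyglutamate synthase Fpgs and the thymidylate synthase Tyms, averaged 39.1, 22.4 and 21.2 FPKM over the 12 libraries. Of 13 purine synthesis genes, a pathway in which Gart and Atic use formyl groups from folate, 0 passed, with medians of -0.01 in both, and Atic, Paics and Prps1 averaged 115, 112 and 106 FPKM. Of 8 genes of lower glycolysis, 0 passed (medians -0.02 and -0.06), with Gapdh at 1267 FPKM. The 8 serine and glycine transport genes and the 8 genes of serine use had medians of 0.05 and 0.04 in SE-BDEV and of 0.04 in CON-BDEV for both, with 0 past the threshold. Of 9 known regulators 0 passed, with medians of -0.03 in SE-BDEV and -0.08 in CON-BDEV, against 0.01 and 0.00 over all genes. In each BDEV group 8 of the 9 were lower, by as little as -0.001 in SE-BDEV. The share of all genes that were lower was not counted. Myc was higher, at 0.12 in SE-BDEV and 0.21 in CON-BDEV. The log2 fold change of Atf4 was -0.15 in SE-BDEV and -0.09 in CON-BDEV (limma adjusted p = 0.313 and 0.474).

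The genes most like the 3 that fell were ranked by the mean absolute distance between standardised log2(FPKM + 1) profiles over the 12 libraries, among 11311 tested genes. For Phgdh they were Lonp1 (0.19), Slc3a2 (0.21), Shmt2 (0.23), Sars (0.24) and Igfbp6 (0.25), against a median distance of 1.15. Lonp1, a mitochondrial protease gene, averaged 88.9 FPKM in SE-BDEV, 87.1 FPKM in CON-BDEV and 112 FPKM in Vehicle. Shmt2 was nearest to Slc3a2 (0.18), the heavy chain of amino acid transporters, then Asns (0.22), Wars (0.23), Phgdh (0.23) and Cdkn1a (0.24). Psat1 was nearest to Hspa9 (0.23), a mitochondrial chaperone gene, then Cdkn1a (0.23), Rpl4 (0.25), Xrcc6 (0.25) and Fyn (0.25). These distances take in the difference between groups.

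Since astrocytes are known to be rich in Phgdh, astrocyte markers were read beside it. The 10 markers summed to 14.1 to 18.0 FPKM in SE-BDEV, 13.8 to 16.2 FPKM in CON-BDEV and 17.4 to 20.1 FPKM in Vehicle. Most of this was Sox9, with means of 14.8 FPKM in SE-BDEV, 14.3 FPKM in CON-BDEV and 16.7 FPKM in Vehicle, followed by Aldoc with 0.905, 1.04 and 1.72 FPKM. The defining markers Gfap, Aqp4, Slc1a2 and Slc1a3 were at most 0.133, 0.0393, 0.0350 and 0.0324 FPKM in any library, and Gjb6 was at 0 in all 12. Unlike Sox9 and Aldoc, Gfap was higher in SE-BDEV, though near the floor. Its range was 0.0518 to 0.133 FPKM in SE-BDEV, 0 to 0.0265 FPKM in CON-BDEV and 0 to 0.0254 FPKM in Vehicle.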

How the data were processed

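Polyadenylated RNA of N2a cells was sequenced in 12 libraries, 4 per group, with a strand-keeping kit, per the labels' protocols. The authors deposited FPKM values per gene and library, made with TopHat2 and Cuffdiff on mm9, per the submitters' processing notes; their versions and the annotation are not stated there. The authors' deposited comparison tables hold, per the file headers, each gene's log2 fold change with its p-value and q-value, for each BDEV group against Vehicle. Groups come from the sample titles. Vehicle libraries were given in each table, on scales that differed by at most 0.0335%, and their mean was used where all 12 libraries were set side by side.

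The fit was made on log2(FPKM + 1), two-sided, using limma 3.58.1 (R 4.3.3) and its moderated variances with a trend, over genes averaging 1 FPKM or more; all 10 enzymes passed this filter. Each BDEV group was fitted against Vehicle within its own table (8 libraries), and SE-BDEV against CON-BDEV over all 12. P-values were adjusted by Benjamini-Hochberg over all genes tested, with a threshold of 0.05. Fold changes on this scale understate those of low genes. The fit was run on simulated data drawn with the spread of the Vehicle libraries alone. The BDEV libraries spread more widely for most enzymes, so that run does not check the fit at their spread. Library totals are not part of the tables used here: depth was estimated by reading the lowest nonzero values (up to 0.05 FPKM) of genes with transcripts of 1500 to 8000 bases as 1 fragment, with lengths from a newer annotation, so it is approximate, and the counting errors cover counting only. Python 3.11.15 and matplotlib 3.10.9 made the figures.

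The members and gene lists were chosen with earlier results of these data known. Named genes were all 10 members, list genes called in any comparison, up to 3 further genes per list by mean FPKM, and the 5 genes nearest to each called member; Ddit3 and Trib3 were chosen after their values were seen. Alternatives were another pseudocount, no filter, median scaling, a replicate block, other libraries in the fit, no trend, and leaving out each library. Genes with near-identical copies or overlapping neighbours may be uncertain, since no source used here states the strand setting of the counting.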

Additional observations from a re-analysis of the deposited data

Results flagged for a closer look

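Of the 30 sets of 4 values (10 genes in 3 groups), 0 held a library whose gap to its nearest neighbour was above Dixon's 95% critical share of the range of the set. With 4 values that gap must fill most of the range, so 0 flags do not show that no library stood apart. SE-BDEV replicate 2 had 62.2 FPKM of Mthfd1l, where the others of its group had 52.7 to 54.4 FPKM. For Aldh1l2 it had 43.2 FPKM, where the others had 22.2 to 27.0 FPKM. Leaving it out gave 5 calls among the 10 enzymes in SE-BDEV against Vehicle (limma). No gene had all SE-BDEV libraries on one side of the Vehicle mean and all CON-BDEV libraries on the other, and none differed between SE-BDEV and CON-BDEV past the threshold in limma (0 of 10, with 0 at an unadjusted p under 0.05).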

How the results depend on the processing

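Under another pseudocount and median scaling all 30 log2 fold changes (10 genes, 3 comparisons) kept their sign and their side of the threshold, and no setting that kept all libraries reversed a sign. In CON-BDEV against Vehicle the 3 calls among the enzymes came to 0 with no filter on low values, with the replicate block, with all 12 libraries in the fit and without the mean-variance trend (limma), with all 3 log2 fold changes of the same sign, and ranged from 0 to 5 with 1 library left out. In SE-BDEV they ranged from 0 to 5 with 1 library left out. Over all genes, the 321 calls of CON-BDEV became 176 with no filter, 135 with the replicate block, 133 with all 12 libraries and 183 without the trend, and ranged from 134 (without Vehicle replicate 1) to 556 (without CON-BDEV replicate 1) with 1 library left out. The 104 calls of SE-BDEV became 0 with no filter (2021 at an unadjusted p under 0.05), 48 with the replicate block and 171 with all 12 libraries, and ranged from 5 (without Vehicle replicate 2) to 315 (without SE-BDEV replicate 2) with 1 library left out. The cause of these shifts was not tested. Same-numbered libraries did not deviate together in every pair (correlations across genes of deviations from the group mean from -0.12 to 0.30 between SE-BDEV and CON-BDEV, where 2 of 4 SE-BDEV libraries correlated best with their own number, and from -0.10 to 0.04 between BDEV groups and Vehicle), so the block is given here only.

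With 1 library left out, the log2 fold change of Mthfd2 ran from -0.14 to 0.0093 in SE-BDEV and from -0.054 to 0.035 in CON-BDEV against Vehicle, and that of Mthfd1 in CON-BDEV from -0.0066 to 0.047, all across 0. In SE-BDEV against CON-BDEV all 10 crossed 0: Phgdh from -0.045 to 0.045, Psat1 from -0.017 to 0.060, Psph from -0.13 to 0.076, Shmt1 from -0.039 to 0.016, Shmt2 from -0.080 to 0.028, Mthfd1 from -0.0025 to 0.065, Mthfd1l from -0.040 to 0.038, Mthfd2 from -0.13 to 0.020, Aldh1l2 from -0.19 to 0.12 and Gldc from -0.080 to 0.0030.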
